A study of Mus musculus with 3 samples.

Results

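The 10 genes of lipid handling that mark Trem2-type macrophages were described across treatments and cell clusters in wounded mouse muscle. They were chosen by name: Trem2, Lpl, Apoe, Fabp5, Gpnmb, Cd36, Abca1, Abcg1, Plin2 and Lgals3, which are 10 of the 13242 genes in the count table, and all 10 were detected. The study removed a volume of quadriceps muscle from mice (volumetric muscle loss) and placed in the wound either urinary bladder matrix (UBM, a decellularised extracellular matrix from bladder), saline, or polycaprolactone (PCL, a synthetic polyester). Macrophages were sorted 1 week after surgery and sequenced by the 10x Chromium droplet method, which reads the 3' end of each transcript and counts molecules by unique molecular identifiers (UMIs). Each treatment has 1 library. All 3 groups carry the same injury and the same sort and differ in the labels by treatment alone. The sources used here do not give the strain, sex or age of the mice, the number of mice behind each library or the markers of the sort.

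Trem2 is a surface receptor for phospholipids and lipoproteins that signals through the adaptor Tyrobp, and in macrophages loaded with lipid from dying cells it is found together with the other genes described here. Lpl (lipoprotein lipase) releases fatty acids from triglyceride-rich particles, the scavenger receptor Cd36 takes up fatty acids and oxidised lipoproteins, Fabp5 carries fatty acids in the cytosol and Plin2 coats lipid droplets. Apoe, Abca1 and Abcg1 serve cholesterol export, and Gpnmb (a lysosome-linked glycoprotein) and Lgals3 (galectin-3) are markers of macrophages with a busy lysosome.

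All 10 are protein-coding genes of the mouse genome (GRCm38, GENCODE M21). Trem2 lies at chr17:48346401-48354147 and Abcg1 at chr17:31057675-31117988, Lpl at chr8:68880491-68907448, Lgals3 at chr14:47367751-47386160, Fabp5 at chr3:10012548-10016607 and Gpnmb at chr6:49036546-49070929, all on the plus strand. Apoe lies at chr7:19696109-19699188, Cd36 at chr5:17781690-17888801, Abca1 at chr4:53030787-53159895 and Plin2 at chr4:86648386-86670060, all on the minus strand. No annotated transcript of another gene matched the last 500 bases of a member's transcript at 95% identity or more over at least 100 bases. Abcg1 overlaps an annotated ribosomal RNA gene (Gm25447) that is not a row of the table.

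RefSeq promoter sequences (GRCm38.p6) were found for 7 of the 10 members, in 9 windows, with 3 windows for Apoe. Promoters of 4 members whose levels moved differently between treatments are shown, because their patterns contrast: Trem2 was highest in RP2, Apoe was lower with both materials, Gpnmb had the widest range between clusters and Plin2 was higher with PCL. Each runs 5′ to 3′ on the strand of the gene, from 250 bases before the RefSeq start to 20 bases after it. Capitals mark matches on either strand to 4 motifs: the E-box CACGTG bound by basic helix-loop-helix factors, the AP-1 site TGAGTCA, the core GAGGAA bound by the macrophage factor PU.1, and the nuclear receptor core AGGTCA.
Trem2, chr17:48346151-48346420, plus strand: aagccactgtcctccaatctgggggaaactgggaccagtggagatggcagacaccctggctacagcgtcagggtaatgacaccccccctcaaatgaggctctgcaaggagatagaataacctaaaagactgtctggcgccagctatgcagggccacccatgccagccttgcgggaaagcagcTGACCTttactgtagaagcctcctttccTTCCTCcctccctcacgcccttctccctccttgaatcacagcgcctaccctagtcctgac
Gpnmb, chr6:49036268-49036537, plus strand: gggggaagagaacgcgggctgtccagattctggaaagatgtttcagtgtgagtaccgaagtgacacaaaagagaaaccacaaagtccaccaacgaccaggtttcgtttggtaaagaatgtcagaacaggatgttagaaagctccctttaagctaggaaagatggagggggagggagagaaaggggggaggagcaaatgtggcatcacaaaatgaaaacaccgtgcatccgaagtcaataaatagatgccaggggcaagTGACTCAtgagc
Apoe, chr7:19699169-19699438, minus strand: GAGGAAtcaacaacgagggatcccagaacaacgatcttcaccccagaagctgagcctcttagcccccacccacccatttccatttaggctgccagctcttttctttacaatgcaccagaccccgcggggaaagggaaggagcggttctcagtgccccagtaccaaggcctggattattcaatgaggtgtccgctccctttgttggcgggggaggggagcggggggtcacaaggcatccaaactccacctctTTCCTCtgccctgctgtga
Plin2, chr4:86670040-86670309, minus strand: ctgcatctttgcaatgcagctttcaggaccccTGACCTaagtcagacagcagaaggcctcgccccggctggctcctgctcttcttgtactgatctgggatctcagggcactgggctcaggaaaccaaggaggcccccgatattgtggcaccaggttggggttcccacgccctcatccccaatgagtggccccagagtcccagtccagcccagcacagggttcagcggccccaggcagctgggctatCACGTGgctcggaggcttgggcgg
Trem2 held the reverse of the PU.1 core 40 bases before its start and the reverse of the nuclear receptor core 68 bases before it. Gpnmb held the reverse of the AP-1 site from base 9 of the transcript. The Apoe window held the PU.1 core 250 bases before the start and its reverse from base 2 of the transcript. Of the other Apoe windows 1 held the PU.1 core 132 bases before its start and 1 held no match. Plin2 held an E-box across its start and the reverse of the nuclear receptor core 218 bases before it. Of the windows not shown, that of Abca1 held an E-box 147 bases before the start, that of Cd36 the reverse of the nuclear receptor core 228 bases before it, and that of Lgals3 no match. Among all 32851 windows of 300 bases in the table, 7.15% held the E-box, 5.20% the AP-1 site, 28.3% the PU.1 core and 16.3% the nuclear receptor core. A match is a description of letters and not of a bound factor.

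The libraries held 2280 (UBM), 341 (saline) and 1753 (PCL) cells with 14586276, 1888343 and 11006118 UMIs, and medians of 5476.5, 4594 and 5662 UMIs per cell. The authors assigned each cell to 1 of 9 clusters, named F1, F2, FP1, R1, R2, R3, RP1, RP2 and RP3, by clustering on expression that can include the members, so their differences between clusters are a description. Of the 11 macrophage markers, all 11 were detected in every library, with summed levels of 16942, 32749.9 and 24140.3 CPM (UMIs of a gene per 1000000 UMIs) in UBM, saline and PCL. Other markers were unequal: the 8 muscle fibre genes summed to 47.6, 709 and 39.1 CPM and the 8 neutrophil genes to 69.9, 223 and 1652 CPM. Adipocytes and endothelial cells, which also use Lpl, Cd36, Fabp5 and Plin2, were near 0: 4 adipocyte markers in the table summed to 1.23, 10.6 and 6.18 CPM, with Adipoq at 0 in UBM and saline, and 7 endothelial markers to 15.9, 5.83 and 11.2 CPM, with Tek, Cldn5, Gpihbp1 and Emcn at 0 in UBM and saline. The 7 fibroblast genes summed to 189, 178 and 312 CPM, the 6 monocyte genes to 684, 614 and 1066 CPM, and the 5 dendritic cell genes in the table to 26.7, 95.9 and 9.63 CPM. The 3 T and NK cell genes summed to 31.5, 1.06 and 0.0909 CPM and the 1 B cell gene to 7.47, 16.4 and 5.18 CPM. Cell barcodes shared between libraries numbered 1 for UBM and saline, 5 for UBM and PCL and 0 for saline and PCL.

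Levels are CPM over the summed cells of a library or cluster, and a summed level cannot tell fewer expressing cells from less RNA per cell. Intervals are 95% intervals for counting error only and leave out the differences between cells, mice and libraries. With 1 library per treatment no difference was tested. As a rule of size, a gene was called higher or lower when its level differed at least 1.5-fold after adding 10 CPM to both levels, if the larger of the levels reached 10 CPM. The same saline library stands behind both comparisons with saline, and the same UBM and PCL libraries behind their own.

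With UBM, the receptor Trem2, the uptake genes Lpl and Cd36, the fatty acid carrier Fabp5 and the galectin Lgals3 were higher than with saline, and the apolipoprotein Apoe was lower. The other 4 members lay within 1.5-fold. That is 5 members higher and 1 lower of 10, beside 5.36% of 7296 genes higher and 10.2% lower, and the members' median log2 ratio was 0.57 against -0.067 for all genes. With PCL, Lpl, Cd36, Lgals3 and the droplet coat gene Plin2 were higher than with saline and Apoe and Gpnmb were lower, which is 4 higher and 2 lower. The background of that comparison was 6.73% of 7389 genes higher and 6.78% lower, and the medians were 0.16 for the members and 0.041 for all genes. Against UBM, PCL had 1 member higher (Plin2) and 3 lower (Trem2, Fabp5 and Gpnmb), beside 10.6% of 7200 genes higher and 5.44% lower, with medians of -0.21 and 0.11. The members thus did not move as a block: Lpl, Cd36 and Lgals3 were higher with both materials, Trem2 and Fabp5 with UBM alone, Plin2 with PCL alone, and Apoe was lower with both.

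**Figure D1:**
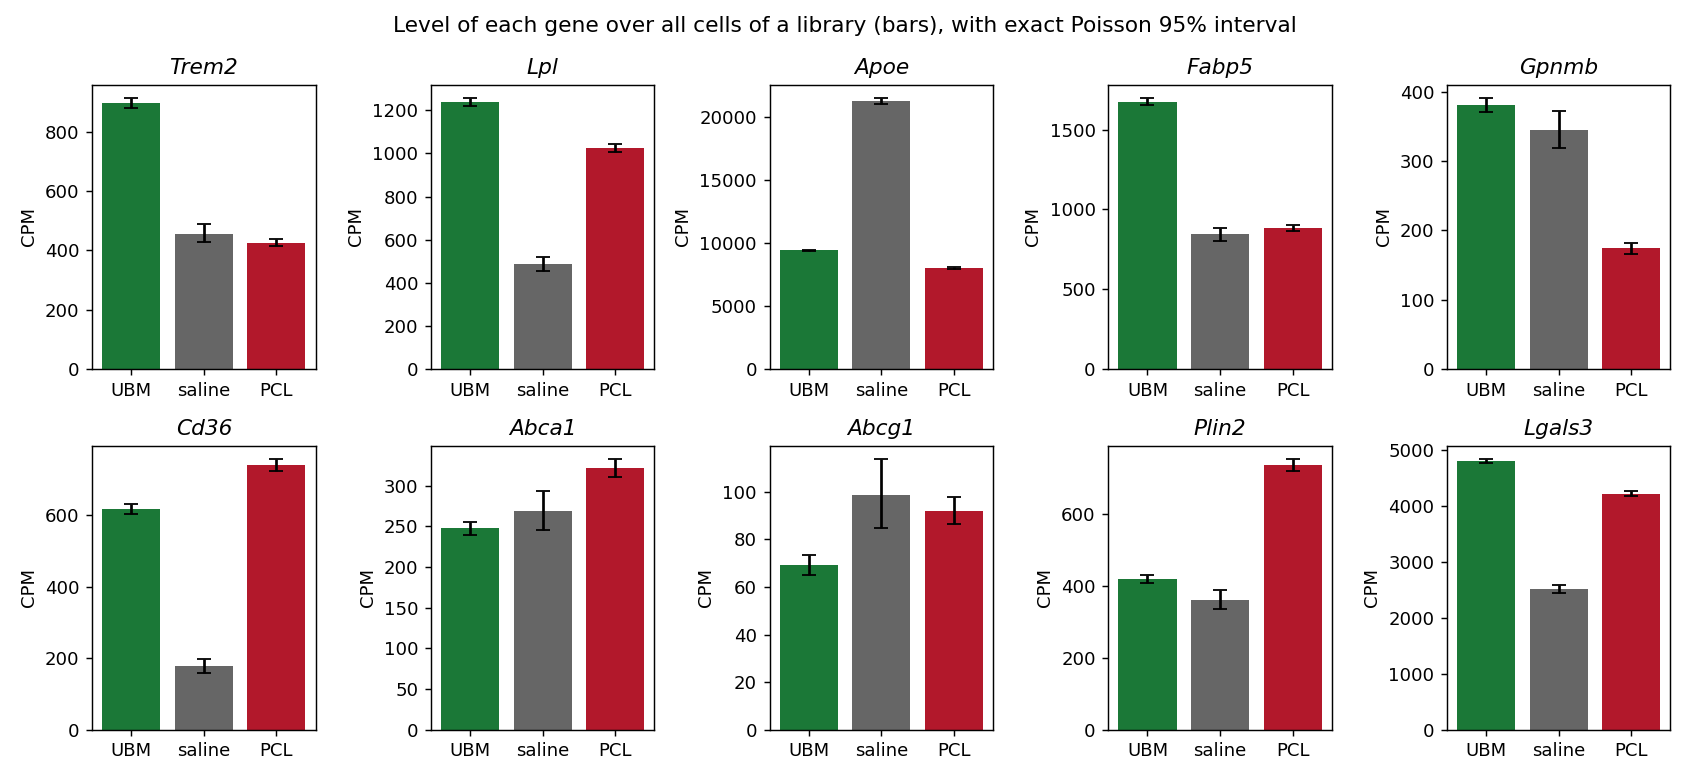
Level of each of the 10 genes in CPM over all cells of a library (y axis, from 0, own scale per gene) for UBM, saline and PCL, 1 library each; bars are levels and whiskers exact Poisson 95% intervals for counting error. Apoe stands at 21260.4 CPM in saline against 9403 and 8016 CPM, while Cd36 stands at 178 CPM in saline against 617 and 739.6 CPM.

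The libraries held unequal shares of the clusters, and the counts changed when shared clusters were weighted alike. FP1 made up 59.1% of PCL cells, 21.1% of saline cells and 4.34% of UBM cells, and R2 held 254 UBM cells and none of the other libraries. In the PCL library FP1 cells carried 82.5% of the Cd36, 82.4% of the Lpl and 80.6% of the Gpnmb UMIs. In the UBM library RP2 cells carried 43.7% of the Cd36, 40.7% of the Lpl and 37.9% of the Trem2 UMIs, and R3 cells 29.0% of those of Apoe. FP1, F1, RP2 and RP3 were the 4 clusters for which no library fell under 30 cells. With these weighted alike, 3 members were higher and 2 lower with UBM against saline. Lpl, Cd36 and Lgals3 stayed higher, Apoe stayed lower and Abcg1 became lower, while Trem2 and Fabp5 came to 1.48-fold and 1.41-fold. The Fabp5 figure includes 1 saline FP1 cell, that with the most UMIs of its library. Without that cell the saline FP1 level of Fabp5 fell from 1818 to 1260 CPM. For PCL against saline 3 were higher and 2 lower, with Lgals3 at 1.31-fold. Shares of all genes past the rule are not given for equal weights. The median log2 ratio of all genes was then -0.05 with UBM and 0.03 with PCL against saline. Equal weights also left out the cells of the other clusters. The separate parts of cluster shares, clusters left out and single cells in these changes were not tested.

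Trem2 was measured at 897 CPM with UBM (882 to 913), 457 CPM with saline (427 to 489) and 426 CPM with PCL (414 to 439). It was 1.96-fold higher with UBM than with saline (1.83 to 2.11), and the interval for PCL against saline, 0.87 to 1.00, reached no difference. Among clusters of 30 cells or more, RP2 had the highest Trem2 level in each library, at 1279, 1129 and 853 CPM in UBM, saline and PCL. R1 had the lowest in saline (159.6 CPM), R2 in UBM (482 CPM) and F1 in PCL (217 CPM). Within RP2, where Trem2 was highest, UBM stood at 1.13 times saline (0.99 to 1.30) and PCL at 0.76 (0.63 to 0.90). Outside RP2 the ratio of UBM to saline was 1.41 in FP1 (1.22 to 1.64), 2.10 in R3, 2.23 in F1, 2.23 in RP3 and 4.79 in R1 (3.57 to 6.56), so UBM was the higher library in all 6 clusters. R1 of UBM had 187 CPM of T and NK cell genes against 0 in R1 of saline, and 76.3 CPM of dendritic cell genes against 499.5 CPM, and their part in the R1 ratios was not tested. The ratio of PCL to saline was 0.81 in F1, 0.95 in FP1 and 1.06 in RP3. Against UBM, PCL was lower in each of the 5 clusters compared, from 0.36 in F1 to 0.67 in FP1. At 2500 UMIs per cell, 76.6% of UBM cells, 50.8% of saline cells and 55.2% of PCL cells had a Trem2 UMI (87.1%, 55.7% and 75.0% before thinning to that depth).

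Tyrobp, the adaptor through which Trem2 signals, was measured at 2382, 2348 and 2331 CPM in UBM, saline and PCL, a UBM to saline ratio of 1.01 (0.98 to 1.05). The receptor thus differed between the libraries while its adaptor was level. Of the other genes of Trem2 signalling, 9 were measured for UBM against saline and 3 were lower and 0 higher. These were the phosphatases Ptpn6 (82.7 against 163 CPM) and Inpp5d (67.1 against 110.1 CPM) and the phospholipase Plcg2 (14.2 against 34.4 CPM), and the median log2 ratio was -0.17. The adaptor Hcst, a partner of related receptors, had the highest ratio (1.18, 0.999 to 1.41). For PCL against saline 1 of 10 was higher and 0 lower, with a median of 0.02. That gene was Trem1, a paralog that amplifies inflammatory signals, at 32.1 CPM with PCL against 4.24 CPM with saline and 1.71 CPM with UBM. The neutrophil markers summed to 1652 CPM in the PCL library, and their part in the Trem1 level was not tested. The 3 genes most like Trem2 across 20 groups of cluster and library, among 4339 genes, were Cd84 (r = 0.91), the lysosomal protease Ctsd (r = 0.90) and the proton pump subunit Atp6v0d2 (r = 0.88). Groups of 1 library or cluster share cells and depth, so this and the correlations below are descriptions.

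Lpl was measured at 1237 CPM with UBM (1219 to 1255), 488 CPM with saline (457 to 520.3) and 1026 CPM with PCL (1007 to 1045). The ratio to saline was 2.54 with UBM (2.37 to 2.71) and 2.10 with PCL (1.97 to 2.25). Lpl was above saline wherever the libraries could be compared. UBM was higher than saline within all 6 clusters, at 2.14 in FP1, 2.63 in F1, 3.23 in R3, 3.37 in RP2, 3.49 in R1 and 4.63 in RP3 (2.18 to 11.8, on 7 saline UMIs). PCL was higher than saline within all 4 clusters compared, from 1.52 in FP1 (1.39 to 1.68) to 6.28 in RP3 (2.93 to 16.0). Between the clusters Lpl had a wide range, from 2624 CPM in R1 to 80.4 CPM in R2 in the UBM library, and from 938 CPM in FP1 to 26.1 CPM in RP3 in saline. The 3 genes most like it were the adaptor Lat2 (r = 0.91), the actin-capping gene Capg (r = 0.91) and the potassium channel Kcnn4 (r = 0.90).

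Cd36 was measured at 617 CPM with UBM (604 to 629.6), 178 CPM with saline (159 to 198) and 739.6 CPM with PCL (724 to 756). Both materials stood far above saline, at 3.47-fold with UBM (3.11 to 3.88) and 4.16-fold with PCL (3.73 to 4.65). Within clusters the direction was not the same everywhere. UBM was above saline in R1 (839.7 against 86.7 CPM, 9.68-fold, 6.54 to 15.0), R3 (360.5 against 61.0 CPM, 5.91-fold), RP2 (1013 against 262 CPM, 3.87-fold) and FP1 (895 against 303 CPM, 2.95-fold). In RP3 UBM was the lowest library: Cd36 stood at 66.0 CPM with UBM, 253 CPM with saline and 281 CPM with PCL. The RP3 ratio of UBM to saline was 0.26 (0.18 to 0.37) and that of PCL to saline 1.11 (0.83 to 1.49). RP3 cells carried 20.2% of all Cd36 UMIs of the saline library and 0.71% of those of the UBM library. In FP1, F1 and RP2 PCL was 3.29-fold to 3.40-fold above saline. The genes most like Cd36 were the ubiquitin ligase Rnf128 (r = 0.88), the haem transporter Slc48a1 (r = 0.86) and the lysosomal enzyme receptor Igf2r (r = 0.84).

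Other genes of lipid uptake did not follow Lpl and Cd36 as a group. For UBM against saline 1 of 13 was higher and 3 lower (median log2 ratio -0.05), and for PCL against saline 4 of 14 were higher and 2 lower (median -0.05). The fatty acid transporter Slc27a1 was higher with both, at 45.9, 22.8 and 49.3 CPM in UBM, saline and PCL. The scavenger receptors Msr1 (102, 81.0 and 246 CPM) and Olr1 (5.62, 5.83 and 30.2 CPM) were higher with PCL alone. Cxcl16, a chemokine that also binds oxidised lipoprotein, was lower with both materials (211, 493 and 270.2 CPM). Against UBM, PCL had 3 of 13 higher and 0 lower (median 0.09).

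**Figure D2:**
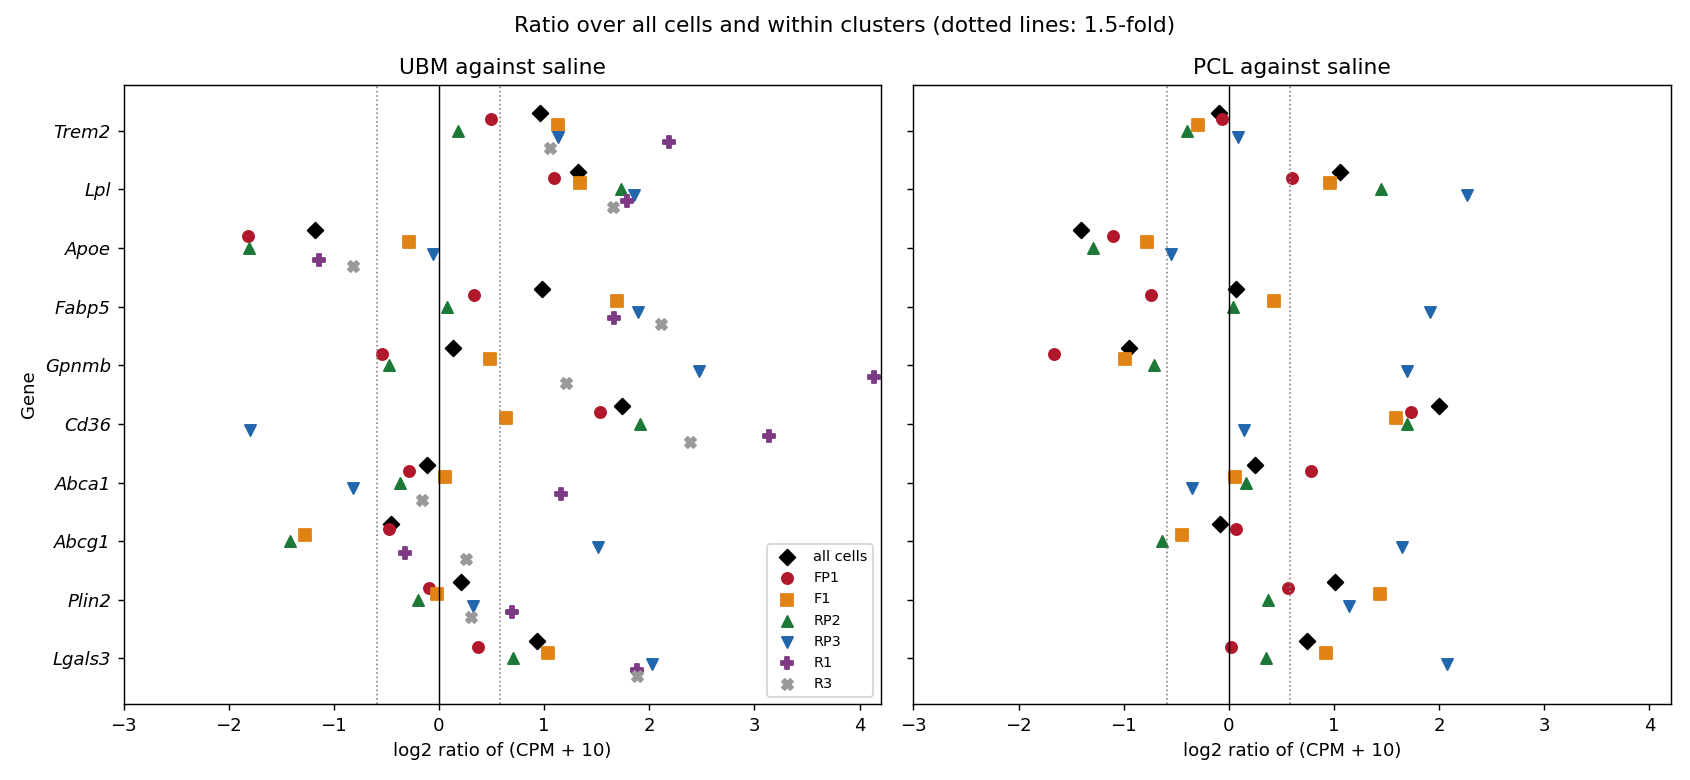
Log2 ratio of each gene (rows), with 10 CPM added to both levels, for UBM against saline (left) and PCL against saline (right); diamonds are all cells, other symbols single clusters (30 cells or more in each library compared), and dotted lines mark 1.5-fold. Lpl lies right of 0 in every cluster shown, Apoe lies left of 0 in every cluster shown, and Cd36 in RP3 lies at -1.79 with UBM while the other clusters lie right of 0.

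Apoe was measured at 9403 CPM with UBM (9353 to 9452), 21260.4 CPM with saline (21053 to 21469) and 8016 CPM with PCL (7964 to 8069). Apoe encodes the lipoprotein that carries exported cholesterol. Saline was 2.26-fold above UBM (2.24 to 2.29) and 2.65-fold above PCL (2.62 to 2.68). The lower level held in every cluster compared, though its size did not. The ratio of UBM to saline was 0.28 in FP1, 0.29 in RP2, 0.45 in R1, 0.57 in R3, 0.82 in F1 and 0.96 in RP3 (0.94 to 0.99), and that of PCL to saline ran from 0.41 in RP2 to 0.68 in RP3. The call of lower did not apply to F1 and RP3 for UBM or to RP3 for PCL, where the ratio was within 1.5-fold. R3, the cluster with muscle fibre RNA, had the highest Apoe level in UBM (28959 CPM) and saline (51004 CPM), and R1 the lowest (1678 and 3722 CPM). Muscle fibre genes summed to 359 CPM in R3 of UBM and 4575 CPM in R3 of saline. Without R3 and F2 the log2 ratio was -1.19 for UBM against saline, as against -1.18 with them, and -1.11 for PCL against saline, as against -1.41. Nearly all cells had an Apoe UMI (97.7%, 97.9% and 99.8%), and the medians were 25, 55 and 30 UMIs per cell. Free RNA in droplets can also give a cell a UMI. These shares therefore cannot tell fewer expressing cells from less RNA per cell. The genes most like Apoe were Itm2b (r = 0.94), the acid ceramidase Asah1 (r = 0.91) and the prostaglandin D synthase Hpgds (r = 0.88).

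Abca1 and Abcg1 pump cholesterol out of the cell, to lipid-poor apolipoprotein and to formed particles respectively. Abca1 was measured at 248 CPM with UBM (239.6 to 256), 268 CPM with saline (246 to 293) and 322 CPM with PCL (311 to 333). Abcg1 was measured at 69.2 CPM with UBM (65.0 to 73.6), 98.5 CPM with saline (84.9 to 114) and 92.1 CPM with PCL (86.5 to 98.0). Neither passed 1.5-fold between any pair of libraries, and for Abcg1 the ratio of UBM to saline was 0.70 (0.60 to 0.83). The clusters differed more than the libraries. Abca1 was highest in RP3 in saline (592 CPM) and PCL (462 CPM) and in RP1 in UBM (355 CPM), and lowest in R1 in UBM (113 CPM) and saline (45.1 CPM). Within FP1, Abca1 was 1.75-fold higher with PCL than with saline (1.43 to 2.15), and within RP3 it was lower with UBM, at 0.56 of saline (0.46 to 0.68). Abcg1 was lower with UBM in RP2, at 0.34 of saline (0.24 to 0.50), and F1, at 0.36 (0.17 to 0.70). In RP3 Abcg1 was 3.69-fold higher with UBM (1.62 to 10.4) and 4.09-fold higher with PCL (1.76 to 11.6), on 6 saline UMIs. Sash1 (r = 0.93), Fnip1 (r = 0.92) and Nisch (r = 0.89) were most like Abca1, and Itgb5 (r = 0.79), Tgfbr1 (r = 0.79) and Csnk1e (r = 0.75) most like Abcg1.

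Apoe, Abca1, Abcg1 and Lpl are known targets of the liver X receptors, which sense oxidised sterols. The receptor gene Nr1h3 was measured at 19.0, 38.7 and 57.0 CPM in UBM, saline and PCL, a ratio of 0.49 for UBM (0.38 to 0.64) and 1.47 for PCL (1.16 to 1.90), and its paralog Nr1h2 at 39.7, 36.5 and 36.8 CPM. Of 12 other targets and receptors measured, 1 was higher and 4 lower with UBM (median log2 ratio -0.36), and 1 was higher and 4 lower with PCL (median -0.23). The phospholipid transfer protein Pltp was lower with both materials (466, 881 and 356 CPM), as was the transporter Abca9 (14.3, 36.0 and 11.3 CPM). The desaturase Scd2 was higher with both (36.8, 12.2 and 43.2 CPM). Mertk, which binds dying cells, was lowest with UBM (33.2, 89.5 and 65.0 CPM). The list therefore did not move with Lpl, the only liver X receptor target among the members that was higher with both materials. For PCL against UBM 2 of the 12 were higher and 0 lower (median -0.07).

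Fabp5 was measured at 1675 CPM with UBM (1654 to 1696), 844 CPM with saline (803 to 886) and 884 CPM with PCL (867 to 902). It was 1.98-fold higher with UBM than with saline (1.89 to 2.09), and PCL stood at 1.05 times saline (0.99 to 1.11). A single saline cell in FP1, the cell with the most UMIs of its library (24118 UMIs, 3867 genes), held 19.0% of the saline Fabp5 UMIs. Without it saline stood at 692 CPM and the ratios were 2.42 for UBM and 1.28 for PCL. In FP1 the same cell held 34.1% of the saline UMIs, and without it the ratio of PCL to saline moved from 0.60 to 0.86 and that of UBM to saline from 1.26 to 1.82. Within RP2 Fabp5 was level across the treatments, at 1544, 1468 and 1508 CPM. UBM was 3.26-fold higher in R1, 3.30-fold in F1, 4.0-fold in RP3 and 4.38-fold in R3 (3.75 to 5.14). R2, the cluster of UBM alone, combined a Fabp5 level of 2631 CPM with the lowest UBM levels of Lpl (80.4 CPM), Gpnmb (18.0 CPM), Cd36 (43.5 CPM), Trem2 (482 CPM) and Plin2 (221 CPM). The genes most like Fabp5 were Ifi27 (r = 0.86), the mitochondrial ribosome gene Mrpl34 (r = 0.84) and Commd6 (r = 0.83).

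Plin2 was measured at 420.1 CPM with UBM (409.7 to 431), 362 CPM with saline (335 to 389.9) and 738 CPM with PCL (722 to 754). PCL was the highest library, 2.04-fold above saline (1.89 to 2.21) and 1.76-fold above UBM (1.70 to 1.82). It stayed above saline in all 4 clusters, at 1.30 in RP2 (1.03 to 1.63), 1.48 in FP1, 2.25 in RP3 and 2.77 in F1 (2.24 to 3.46), and above UBM in all 5, from 1.44 in RP1 to 2.81 in F1. The saline cell with the most UMIs held 19.6% of the saline FP1 Plin2 UMIs, and without it the FP1 ratio of PCL to saline was 1.76 (1.53 to 2.03). Between clusters of the PCL library Plin2 was the most even member, with 821 CPM in RP1 and 588 CPM in RP3, a ratio of 1.40. At 2500 UMIs per cell 57.7%, 47.3% and 75.7% of UBM, saline and PCL cells had a Plin2 UMI. The genes most like Plin2 were the lectin receptor Clec4d (r = 0.90), the peroxiredoxin Prdx1 (r = 0.90) and the secreted phosphoprotein Spp1 (r = 0.88).

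Fabp5, Plin2, Cd36 and Lpl are known targets of the peroxisome proliferator-activated receptors (PPARs), which sense fatty acids. Pparg itself was measured at 19.1, 16.9 and 15.5 CPM, with intervals of 0.78 to 1.68 and 0.62 to 1.37 for the ratios to saline, so no difference could be seen at this depth. Of 14 other PPAR genes measured, 0 were higher and 2 lower with UBM (median log2 ratio -0.13) and 0 higher and 0 lower with PCL (median -0.05). The lower genes were Ucp2 (385, 677 and 666 CPM), a mitochondrial carrier, and Fabp3 (2.54, 10.6 and 6.63 CPM), the muscle paralog of Fabp5. Muscle fibre genes summed to 709 CPM in saline against 47.6 CPM in UBM, and their part in the Fabp3 level was not tested. Fabp4, the adipocyte paralog that macrophages also use, was measured at 78.8, 54.0 and 76.0 CPM, within 1.5-fold. For PCL against UBM 1 of 12 was higher and 0 lower (median -0.03).

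Lipid droplet genes were partly like Plin2. Of the 12 measured for UBM against saline 2 were higher and 1 lower (median -0.09), of the 14 for PCL against saline 4 were higher and 1 lower (median 0.09), and for PCL against UBM 1 of 12 was higher and 0 lower (median 0.05). Hilpda, which inhibits droplet lipolysis, was higher with both materials (299, 84.7 and 208 CPM), and so was Soat1, which esterifies cholesterol (167, 107.5 and 173 CPM). G0s2, another lipolysis inhibitor, was measured at 3.02, 1.59 and 19.8 CPM, on 3 saline UMIs, a PCL to saline ratio with an interval of 4.21 to 60.9. Cholesterol synthesis genes had 11 measured against saline, with 1 higher in each comparison (Mvd, at 13.1, 5.30 and 13.1 CPM) and 0 lower, and medians of 0.24 with UBM and 0.18 with PCL. For PCL against UBM 0 of 9 passed 1.5-fold in either direction (median -0.00068).

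Gpnmb was measured at 380.4 CPM with UBM (370.4 to 390.5), 345 CPM with saline (319 to 373) and 174 CPM with PCL (166 to 182). PCL was the lowest library, at 0.50 of saline (0.46 to 0.55) and 0.46 of UBM (0.43 to 0.48), while UBM and saline differed by 1.10 (1.02 to 1.20). The saline value rests on few cells. Of 341 saline cells 71 had a Gpnmb UMI, 5 cells held 51.4% of the UMIs, and the saline FP1 cell with the most UMIs held 23.3%. Without that cell saline stood at 268 CPM, and the ratio was 1.42 with UBM (1.29 to 1.56) and 0.65 with PCL (0.59 to 0.72). In FP1 the ratio of UBM to saline moved from 0.68 to 1.09 without it, and that of PCL to saline from 0.31 to 0.49. In R1, by contrast, UBM held 997 Gpnmb UMIs (411 CPM) and saline 4 (13.9 CPM), a ratio of 29.6 (11.5 to 109). The part of the T and NK and dendritic cell genes of R1 in this ratio was not tested. In RP3 saline held 1 Gpnmb UMI, and the ratio of UBM to saline of 17.7 has an interval of 3.07 to 710.5. R3 had the highest Gpnmb level in UBM (1034 CPM), FP1 in saline (774 CPM) and RP2 in PCL (397 CPM).

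Gpnmb is a known target of the MiT-TFE factors, which drive lysosome genes, and its most similar genes were the growth factor Pdgfa (r = 0.90), the proton pump subunit Atp6v0d2 (r = 0.86) and Syngr1 (r = 0.86). Atp6v0d2, another MiT-TFE target, had its lowest level with PCL as Gpnmb did (139, 75.2 and 32.9 CPM in UBM, saline and PCL). Ctsk, a protease of the same list, was higher with both materials instead (98.0, 10.1 and 82.7 CPM). The factors themselves were unequal: Mitf stood at 45.8, 31.8 and 59.9 CPM, Tfec at 39.6, 18.5 and 29.1 CPM and Tfe3 at 31.1, 53.0 and 51.4 CPM. Of 11 genes measured 3 were higher and 1 lower with UBM (median -0.0017), 2 higher and 1 lower with PCL (median 0.14), and 1 higher and 1 lower for PCL against UBM (median 0.12). Of 22 genes of lysosomal lipid breakdown 1 was higher and 3 lower with each material against saline, with medians of 0.17 with UBM and -0.14 with PCL. The higher gene was the protease Ctsl (3156, 762 and 2408 CPM). For PCL against UBM 0 were higher and 4 lower (median -0.24), among them the phospholipase Pla2g15 (29.9 against 88.1 CPM) and the hexosaminidase Hexa (415 against 747 CPM).

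Lgals3 was measured at 4791 CPM with UBM (4756 to 4827), 2507 CPM with saline (2436 to 2579) and 4214 CPM with PCL (4176 to 4253). Both materials stood above saline, at 1.91-fold (1.86 to 1.97) and 1.68-fold (1.63 to 1.73), and without the saline cell with the most UMIs at 2.18-fold and 1.92-fold. In FP1, where saline was highest (5264 CPM), UBM stood at 1.29 and PCL at 1.01 (0.97 to 1.05) times saline. That cell held 25.1% of the saline FP1 Lgals3 UMIs, and without it saline FP1 stood at 4148 CPM and the ratios were 1.64 (1.56 to 1.73) and 1.28 (1.23 to 1.34). In RP2 they were 1.63 and 1.28. Where saline was lowest, in RP3 (313 CPM), UBM and PCL stood at 4.16 (3.33 to 5.25) and 4.31 (3.44 to 5.46). In R1 and R3 UBM was 3.71-fold and 3.70-fold above saline. FP1 had the highest Lgals3 level and RP3 the lowest in each of the 3 libraries. The genes most like Lgals3 were Capg (r = 0.92), the proteasome subunit Psmb6 (r = 0.91) and the purine salvage gene Aprt (r = 0.90). Lgals1, its close relative, had the same order of libraries (2829, 1586 and 2468 CPM), while Lgals3bp, a ligand of galectins, was lower with UBM (110.3, 216 and 168 CPM) and so was Lgals9 (49.8, 83.1 and 93.2 CPM). Of 4 other galectin genes measured 1 was higher and 2 lower with UBM (median -0.45), and 1 higher and 0 lower with PCL (median 0.06) and for PCL against UBM (median 0.40).

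The wider signature of lipid-associated macrophages, 19 measured genes beside the members, had 5 higher and 1 lower with UBM (median log2 ratio 0.35), 6 higher and 2 lower with PCL (median -0.02), and 4 higher and 4 lower for PCL against UBM (median -0.20). The elastase Mmp12 was higher with both materials (1139, 147 and 699 CPM). Spp1 (osteopontin; 1757, 873 and 6296 CPM) and the tetraspanin Cd9 (310.2, 268 and 865 CPM) were highest with PCL. The growth factor Igf1 (679, 252 and 181 CPM) and the protease inhibitor Timp2 (889.8, 622 and 309 CPM) were highest with UBM. Axl, a receptor for dying cells, was highest with saline (14.8, 111 and 49.0 CPM). The signature thus split between the materials, as the members did.

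**Figure D3:**
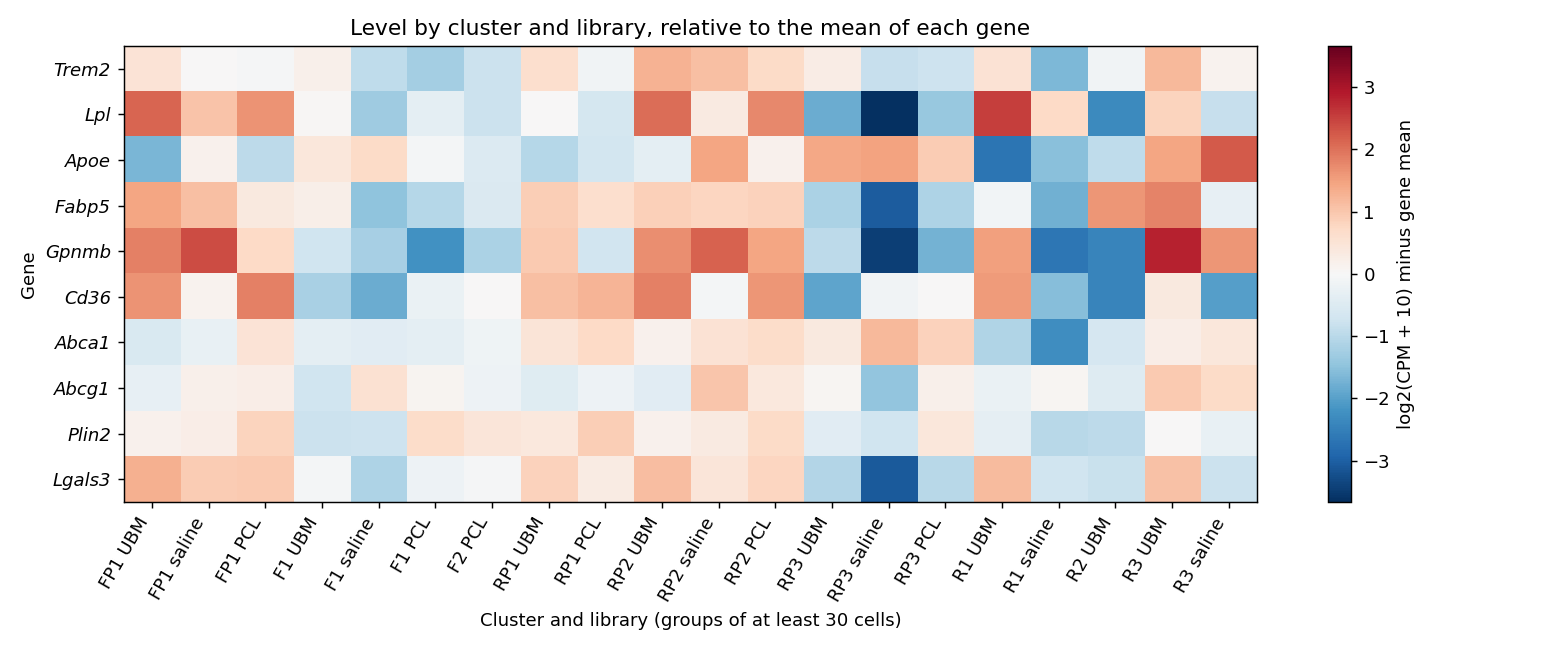
Level of each gene (rows) in the 20 groups of cluster and library with at least 30 cells (columns), as log2(CPM + 10) minus the gene's mean over the groups; red is above and blue below that mean. Saline RP3 and saline R1 are blue for Gpnmb, Fabp5 and Lgals3, and RP2 is red for Trem2 in all 3 libraries.

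Over all libraries 4 members were higher in RP2 than in all other cells and 0 were lower, beside 1.44% of 7086 genes higher and 6.70% lower: Trem2 2.17-fold (2.10 to 2.24), Lpl 1.87-fold, Gpnmb 1.82-fold and Cd36 1.69-fold. Within the UBM library 3 were higher (1.37% of genes), within saline 7 (11% of genes) and within PCL 5 (4.67% of genes), and 0 were lower in any (4.09%, 20.1% and 12.9% of genes). Trem2 alone passed in each of the 3 libraries. Apoe (0.99), Plin2 (0.92) and Abca1 (1.07) were level between RP2 and the rest with all libraries pooled. Within single libraries Apoe and Plin2 were not level throughout. Apoe stood at 8337, 29247 and 11960 CPM in RP2 of UBM, saline and PCL. Over all cells of these libraries Apoe stood at 9403, 21260.4 and 8016 CPM. Plin2 stood at 485, 557 and 722 CPM in RP2, against 420.1, 362 and 738 CPM over all cells. Lists measured without the members gave 3 of 19 signature genes higher and 3 lower in RP2, with Igf1 (747 against 394 CPM) higher and Axl (12.2 against 39.5 CPM) lower, and 1 of 22 lysosomal genes higher, Ctsd (2995 against 1694 CPM).

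Other clusters showed other sets of members. R3 had 5 higher and 1 lower over all libraries (5.91% and 8.11% of genes) and FP1 3 higher and 1 lower (5.92% and 5.63%), and within PCL FP1 had 6 higher and 1 lower (4.13% and 6.79%). F1 had 0 higher and 6 lower (6.62% and 5.45%), R2 1 higher and 7 lower (6.36% and 11.5%), R1 1 higher and 4 lower (3.73% and 7.54%) and RP3 2 higher and 5 lower (9.45% and 9.53%). Clusters were unequally shared between libraries, so counts over all libraries mix cluster with treatment. In R3 the members' median log2 ratio was 0.40 within UBM and 0.18 within saline (-0.03 for all genes in each). In FP1 it was 0.35, 0.94 and 0.78 within UBM, saline and PCL (0.06, 0.07 and 0.03 for all genes). In R1 it was -0.19 within UBM and -1.35 within saline (-0.01 for all genes in each).

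Members were also compared between treatments within clusters. In R1 8 members were higher and 1 lower with UBM against saline, beside 15.6% and 17.3% of genes, with a median log2 ratio of 1.73 against -0.07 for all genes. The part of the T and NK and dendritic cell genes that differ in R1 was not tested. In RP3 6 were higher and 2 lower with UBM (12% and 21.3%, median 1.32), and 6 higher and 0 lower with PCL (18.7% and 14.6%, median 1.40). In R3 6 were higher and 1 lower with UBM (13.3% and 19.3%), and the part of its muscle fibre genes, 4575 CPM with saline and 359 CPM with UBM, was not tested. In FP1 2 were higher and 1 lower with UBM (11.7% and 14.2%). Without the saline cell with the most UMIs FP1 had 4 higher (Lpl, Cd36, Fabp5 and Lgals3) and 1 lower (11.7% and 14.8%). In F1 5 were higher and 1 lower (17.9% and 18.5%), and in RP2 3 and 2 (16.2% and 18.8%). With PCL against saline 3 were higher and 3 lower in FP1 (9.52% and 7.39%), and without that cell 4 were higher (Lpl, Cd36, Abca1 and Plin2) and 2 lower (Apoe and Gpnmb; 9.49% and 7.77%). With PCL against saline there were 4 higher and 2 lower in F1 (15.7% and 10.2%) and 2 and 3 in RP2 (20.4% and 19.1%). For PCL against UBM 3 were higher and 2 lower in FP1 (11.5% and 7.91%), 3 and 3 in F1 (18.2% and 11%), 0 and 3 in RP1 (20.9% and 13.9%), 1 and 0 in RP2 (14% and 10.4%) and 2 and 2 in RP3 (17.3% and 5.52%). The members called in FP1, F1, RP2 and RP3 differed: Lpl passed with PCL against saline in all 4, Plin2 in F1 and RP3 (and in FP1 without the saline cell), and Gpnmb was lower in FP1, F1 and RP2 and higher in RP3. R1 of saline held 46 cells and RP3 of saline 68, so those shares of all genes carry the counting noise of small groups.

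Members were also counted cell by cell. After thinning to 2500 UMIs, the median number of the 10 members with a UMI was 7 in RP2 of UBM and PCL and 6 in RP2 of saline, against 6, 4 and 6 over all UBM, saline and PCL cells and 3 in R1 of saline. All 10 members were seen in 26 of 2118 UBM cells (16 in RP2, 5 in R3, 4 in RP1 and 1 in FP1) and in 0 of 262 saline cells. In PCL they were seen in 10 of 1599 cells, all among the 946 of FP1, and in 0 of 52 in RP2. With so few RP2 cells, that 0 cannot be told apart from the FP1 share. Between the 3937 thinned cells of groups large enough, centred within cluster and library, the 45 pairs of members had low correlations. At 2500 UMIs 1 UMI equals 400 CPM, and Gpnmb, Abca1 and Abcg1 lay below that level in every library. Counting noise lowers such correlations, so low values do not show that members vary apart between cells. Over the libraries together the highest was Lpl with Cd36, at r = 0.34 (0.40 in UBM, 0.20 in saline and 0.28 in PCL), the next at most 0.24, and the lowest was Apoe with Cd36, at r = -0.20. In saline Fabp5 with Gpnmb (r = 0.43) and Gpnmb with Lgals3 (r = 0.31) were above Lpl with Cd36. In R1 of UBM 70.7% of the cells with an Lpl UMI (133 of 188) also had a Cd36 UMI, against 17.8% of those without (16 of 90). The part of the T and NK and dendritic cell genes of R1 in this contrast was not tested. In RP1 of UBM the shares were 76.5% and 37.6%, and in RP2 of UBM 78.9% and 57.8%. They were 75.9% and 65.0% in FP1 of PCL, 47.4% and 32.2% in F1 of PCL, and 7.41% and 4.57% in R2 of UBM. Doublets were not called here, and droplets with more than 1 cell can hold UMIs of both genes.

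Across the 20 groups many correlations were larger in size than between cells. Groups sum many cells and carry less counting noise, so the sizes of these correlations and those between cells cannot be compared. Lpl with Lgals3 had r = 0.89, Trem2 with Gpnmb 0.82, Fabp5 with Lgals3 0.80 and Gpnmb with Lgals3 0.80. Apoe went the other way from Lpl (r = -0.52) and Lgals3 (r = -0.48) and with Abca1 (r = 0.59). Trem2 with Apoe had r = 0.07, against 0.14 between cells. Cd36 with Plin2 had r = 0.71, Cd36 with Lpl 0.66 and Trem2 with Lpl 0.49.

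**Figure D4:**
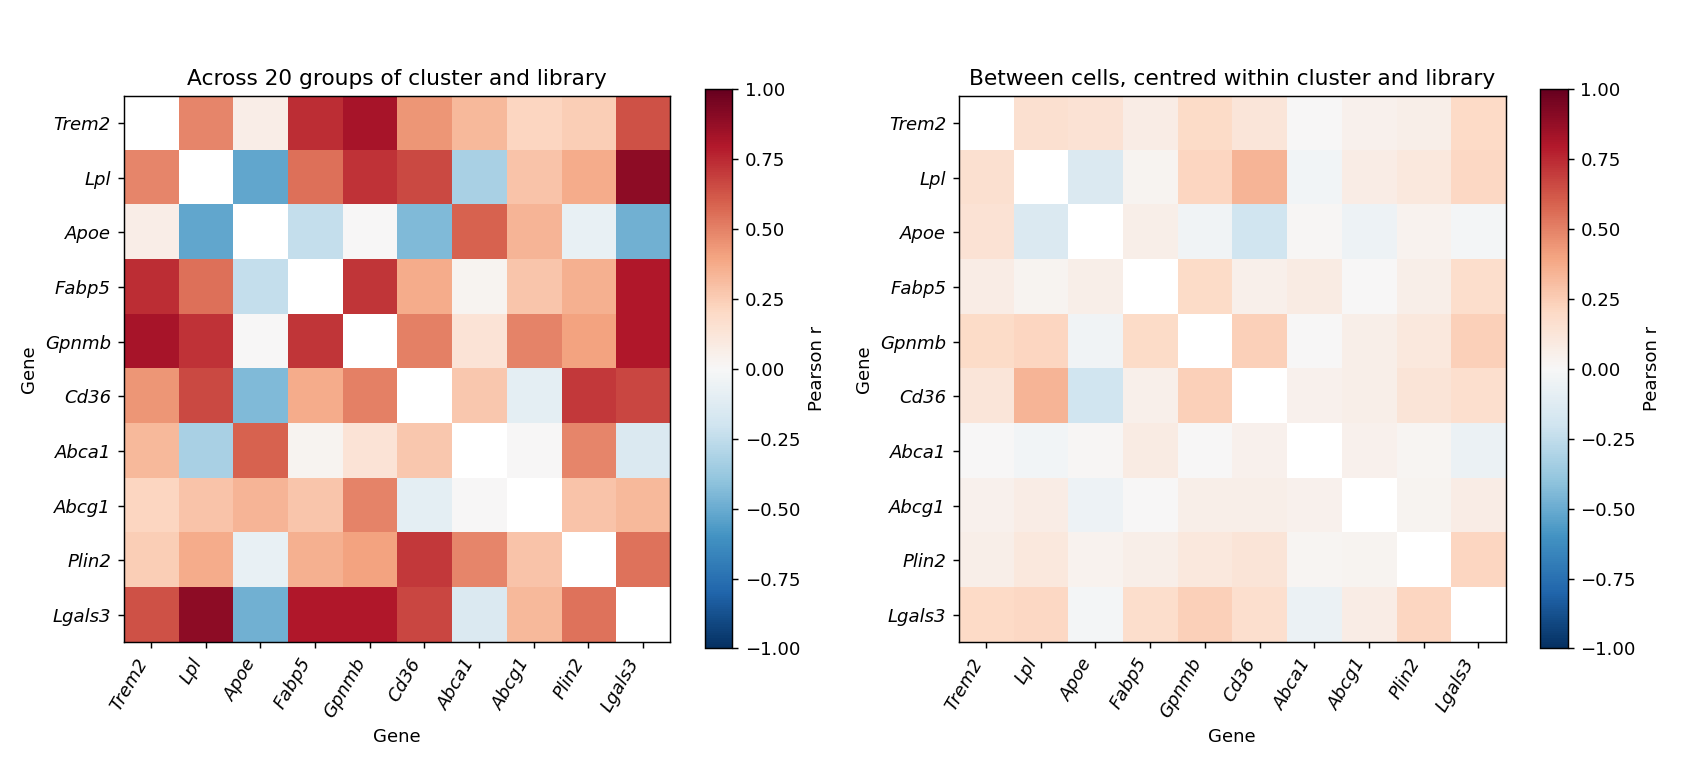
Pearson correlation of each pair of the 10 genes across 20 groups of cluster and library (left, log2 of CPM + 10) and between cells, centred within cluster and library (right); colour runs from -1 (blue) to 1 (red). Lpl with Lgals3 reaches 0.89 on the left, and on the right, over the libraries together, no pair passes the 0.34 of Lpl with Cd36.

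Free RNA in droplets sets a floor for shares of cells with a UMI. F2, the small cluster with 56946 CPM of neutrophil genes in PCL, was set beside the others, with 45 cells and a median of 4373 UMIs. It also held 19534 CPM of macrophage genes, near the 24858 CPM of F1, so free RNA and macrophage RNA of its own cannot be told apart in it. At 2500 UMIs the F2 shares in PCL (33 cells) were 24.2% for Lpl (11.1 to 42.3%), 45.5% for Trem2, 54.5% for Cd36, 12.1% for Gpnmb, 66.7% for Fabp5, 69.7% for Plin2, 97.0% for Lgals3 and 100% for Apoe. F1, with a median of 6078 UMIs, was at or below the F2 share for Trem2 (37.5%), Cd36 (38.2%), Gpnmb (4.7%), Fabp5 (48.3%), Abca1 (36.6%) and Abcg1 (16.1%), so these shares could not be told apart from those of F2. FP1, with a median of 5530 UMIs, was above F2 for Lpl (64.1%, 60.9 to 67.1%), and so was RP2 (75.0%, 61.1 to 86.0%), while the FP1 share of Fabp5 (65.1%) was not. Apoe and Lgals3 were found in nearly all cells of both kinds, so their shares say nothing about which cells made them.

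**Figure D5:**
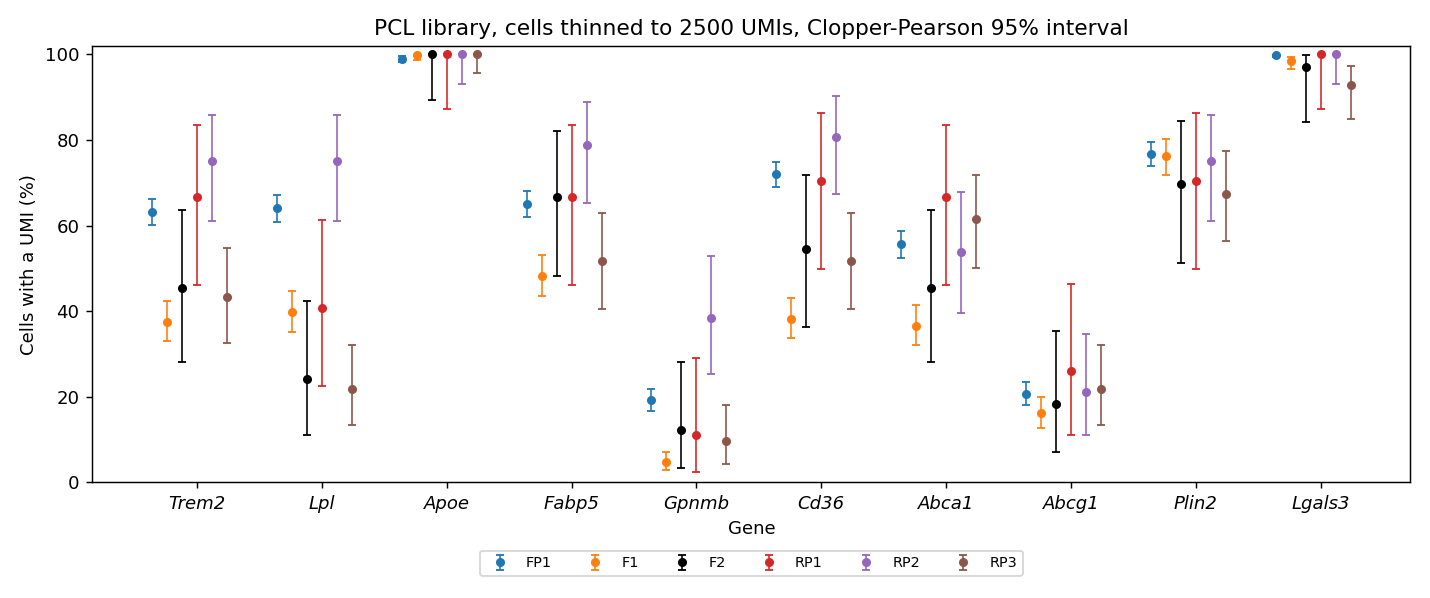
Share of PCL cells with a UMI of each gene (y axis, %) after thinning each cell to 2500 UMIs, for 6 clusters; points are shares and whiskers Clopper-Pearson 95% intervals, and F2, the cluster with neutrophil genes, is in black. Lpl in FP1 and RP2 stands above F2, while Fabp5 in FP1 overlaps it and Apoe is near 100% in every cluster.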

How the data were processed

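The deposited table holds raw counts of UMIs per gene and cell (13242 genes, 4374 cells), per the file headers and from whole-number values, and another deposited table lists the cluster and condition of every cell. The submitters' processing notes name Cell Ranger, Seurat version 2 and the build hg38, although the symbols are those of mouse genes: 12831 of 13242 (96.9%) were found in GENCODE M21. The condition names ECM, PBS and Synthetic were matched to UBM, saline and PCL by their meaning. The members and lists were chosen with earlier results of these data known.

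Counts were summed over the cells of a library or cluster and divided by the summed total. Poisson intervals for levels, conditional binomial intervals for ratios and Clopper-Pearson intervals for shares are exact, at 95%. Groups needed 30 cells. For shares, cells were thinned to 2500 UMIs (seed 1), which left out 162 UBM, 79 saline and 154 PCL cells with fewer. A count of 0 allows up to 3 counts, or 0.206, 1.59 and 0.273 CPM in UBM, saline and PCL. Correlations across groups used log2(CPM + 10), among genes that reached 50 CPM in some group, and those between cells log2(CPM + 100). No doublet caller was run. Cells are not replicates, so nothing was tested. The genes named are the members, the 3 genes most like each, and from each list the 2 highest and 2 lowest genes of a comparison and any partner, regulator or paralog of a member; a few others were named after their values were seen, to complete a small count or to show a pattern.

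Alternatives were other scalings (trimmed mean of M values and median of ratios), each cell counted alike, totals that leave out Malat1 and the ribosomal protein genes, cells or clusters left out, other pseudocounts, minimums and folds, and equal weight for clusters. Leaving out the saline cell with the most UMIs was chosen after seeing the data. The code for the calls was run on simulated library counts with counting error alone. These hold no differences between cells, mice or libraries, so that run says nothing about errors from such differences. R 4.3.3 with edgeR 4.0.16 (scaling factors only), Python 3.11.15, NumPy 2.4.6, SciPy 1.17.1, pandas 2.3.3 and matplotlib 3.10.9 were used.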

Additional observations from a re-analysis of the deposited data

Results flagged for a closer look

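Some members went in opposite directions in different clusters under the same comparison, by log2 ratios with 10 CPM added to both levels. With 1 library per treatment the differences between clusters were not tested. For UBM against saline, Cd36 had a log2 ratio of 3.14 in R1 and -1.79 in RP3. Abca1 had 1.16 in R1 and -0.82 in RP3. Abcg1 had 1.52 in RP3 and -1.42 in RP2.

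For PCL against saline, Fabp5 had a log2 ratio of 1.91 in RP3 and -0.74 in FP1, and Gpnmb had 1.70 in RP3 and -1.67 in FP1. Abcg1 had 1.65 in RP3 and -0.64 in RP2. The RP2 ratio of Abcg1, 0.62, has an interval of 0.38 to 1.02, which reaches no difference. The RP3 values rest on 25 saline UMIs of Fabp5, 6 of Abcg1 and 1 of Gpnmb. The FP1 ratios of PCL to saline were 0.86 for Fabp5 and 0.49 for Gpnmb without the saline cell with the most UMIs.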

How the results depend on the processing

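Counts of members higher and lower were 5 and 1 for UBM against saline, 4 and 2 for PCL against saline and 1 and 3 for PCL against UBM under every scaling, pseudocount, minimum level and choice of cells tried over whole libraries. Within FP1 the count higher for UBM against saline moved from 2 to 4 without the saline cell with the most UMIs. A 2-fold rule left 2 higher for UBM against saline, 1 lower for PCL against saline and 0 higher for PCL against UBM, and 1 higher for RP2 against all other cells. Lgals3 for PCL against saline (log2 ratio 0.75) and Fabp5 for PCL against UBM (-0.91) also fell short of 2-fold. Shares of all genes past 2-fold are not given. With equal weight for the 4 shared clusters UBM against saline had 3 higher and 2 lower, with no share of all genes given beside them. Within the saline library alone 7 members were higher in RP2, against 4 over all libraries. No called member changed direction. Values that passed no rule did: Gpnmb for UBM against saline ran from -0.37 with equal weights to 0.49 without the saline cell with the most UMIs, and Apoe for PCL against UBM moved from -0.23 to 0.08 without R3 and F2. The cause was not tested. The median log2 ratio of all genes for UBM against saline moved from -0.07 to 0.04 with the trimmed mean of M values. No paired analysis was possible because each condition has 1 library and no result comes from a test. The saline library, with 341 cells, limits the precision of both comparisons with saline.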
